A study of Homo sapiens with 6 samples.

Results

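SYVN1, also called HRD1, is the E3 ubiquitin ligase of the endoplasmic reticulum (ER) membrane that marks misfolded proteins for destruction. The RNA of SYVN1 was followed with that of 8 further genes of ER-associated degradation, namely SEL1L, DERL1, DERL2, EDEM1, EDEM3, RNF139, MARCHF6 and HERPUD1. The 9 genes were chosen by name, as the SYVN1 complex, its lectins and the ligases that act on sterol enzymes, out of 61552 gene identifiers with counts. Each symbol matched a single identifier, and all 9 were among the 17084 genes expressed highly enough to be tested.

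The cells were MDA-MB-231, an established human breast cancer line that lacks the estrogen and progesterone receptors. A single line was used, in adherent culture and without genetic change. The control group, 3 libraries, received the DMSO vehicle for 24 h, and the treated group, 3 libraries, received 10 µM VNLG-152R for 24 h. VNLG-152R is described by the study as a degrader of the kinases MNK1 and MNK2. The comparison asks whether the RNA of SYVN1, which the study links to that degradation, differed between the groups. The study reports higher SYVN1 from transcriptome and proteome analyses and immunoblots, and ties it to loss of both kinases by inhibitor and siRNA. RNA counts do not address the protein results. The study's methods say that cells were treated in triplicate, without saying whether these were independent experiments, so a p-value covers only library-to-library spread, which may be technical.

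In ER-associated degradation, proteins that fail to fold are recognized in the ER lumen or membrane, moved across the membrane, tagged with ubiquitin and handed to the proteasome in the cytosol. SYVN1 does the tagging, SEL1L holds the complex together and brings in substrates, Derlins and HERPUD1 form part of the passage, and EDEM proteins trim sugar chains to label glycoproteins for disposal. The same route controls cholesterol synthesis, because RNF139 and MARCHF6 are membrane ligases that act on sterol enzymes or their regulators. Several of these genes are targets of the unfolded protein response, the program by which cells answer a load of misfolded protein.

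Every library held 60122936 to 82151816 counts assigned to genes, and each treated library was deeper than each control. Levels are given as CPM, a gene's counts scaled to a common library size after TMM normalization, which matches libraries on most genes. Testing used the quasi-likelihood method of edgeR, and a gene is said to have changed at an adjusted p under 0.05. The changed genes made up 5.19% of those tested, with 3.76% higher and 1.43% lower in the treated group, and for 28.5% the groups did not overlap. All 6 markers of the line lay between 217 and 5166 CPM in every library, with CAV1 the lowest and VIM the highest. Of the receptors, PGR averaged 0.371 CPM in controls and 0.545 with VNLG-152R, whereas ERBB2 averaged 90.3 and 98.5 CPM. Of the 6, VIM and CAV1 fell with VNLG-152R, by 0.39 and 0.60 on the log2 scale (edgeR, adjusted p = 0.0472 and 0.0048). The other 4 did not pass, and EGFR had a log2 fold change of 0.30 with groups apart (adjusted p = 0.119). These are bulk libraries, so fewer cells and less RNA per cell cannot be told apart. Counts measure RNA and carry no information on protein level.

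The sequences just upstream of SYVN1, EDEM1 and HERPUD1 are shown because the unfolded protein response acts on such genes through short promoter elements that contain CCACG. Capitals mark each CCACG on the printed strand, each CGTGG, which is CCACG on the opposite strand, and in HERPUD1 a whole ER stress response element II (ATTGGNCCACG). They are RefSeq windows on GRCh38.p14, written 5′ to 3′ along the gene's strand and cut where the GENCODE 29 gene begins. SYVN1 is from chr11:65134534-65134769 (minus strand), EDEM1 from chr3:5187457-5187645 (plus strand) and HERPUD1 from chr16:56931892-56932047 (plus strand).
SYVN1: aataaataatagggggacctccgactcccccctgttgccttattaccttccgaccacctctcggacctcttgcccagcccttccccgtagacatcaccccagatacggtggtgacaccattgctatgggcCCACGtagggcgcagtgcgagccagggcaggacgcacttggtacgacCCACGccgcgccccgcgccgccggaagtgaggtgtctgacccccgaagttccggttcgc
EDEM1: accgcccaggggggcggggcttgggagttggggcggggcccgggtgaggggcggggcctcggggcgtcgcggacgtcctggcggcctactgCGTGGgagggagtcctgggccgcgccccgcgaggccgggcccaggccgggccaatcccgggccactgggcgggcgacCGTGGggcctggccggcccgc
HERPUD1: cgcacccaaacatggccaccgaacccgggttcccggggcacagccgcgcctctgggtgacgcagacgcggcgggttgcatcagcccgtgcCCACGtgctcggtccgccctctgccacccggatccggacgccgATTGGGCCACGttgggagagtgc

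Both strands of the 250 bases before the annotated RefSeq start were searched, and 6 of the 9 genes had such a window. CCACG occurred in 5 of the 6, DERL2 being without it, and in 33.3% of the 27305 windows of all genes. The DERL2 window, chr17:5486179-5486428, lies inside the GENCODE 29 gene, which begins at 5486811 on the minus strand. Positions below count back from the RefSeq start, which lies 14 bases past the end of the printed stretch for SYVN1, 61 for EDEM1 and 94 for HERPUD1. SYVN1 held CCACG on its own strand, 120 to 116 and 73 to 69 bases before the start. EDEM1 held it on the opposite strand, 159 to 155 and 82 to 78 bases before the start. The element of HERPUD1 lay 117 to 107 bases before the start and includes a CCACG, and a further CCACG lay at 160 to 156. ATTGGNCCACG occurred in 0.0513% of all windows. No window of the 6 held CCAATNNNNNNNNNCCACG, the ER stress response element (0.0806% of all windows). TGACGTGG, whose last letters are CCACG on the other strand, and TCACNCCAC, a sterol element core, were also without a match in the 6 (0.667% and 0.875% of all windows). The 3 windows found for the sterol genes described below had no TCACNCCAC either. Of these 3 genes INSIG1 alone rose with VNLG-152R, so the absence of TCACNCCAC says little. A match is a description of letters and not of a bound site.

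Among the 9 genes, EDEM1 alone changed, and it was higher with VNLG-152R. SYVN1 itself did not pass the test, nor did the other 7. The share of 1 in 9 stands beside 3.76% of all tested genes that were higher. The log2 fold change was positive for 7 genes and negative for 2, and its median was 0.16 against -0.00 over all tested genes. The groups did not overlap for 5 of the 9, against 28.5% of tested genes. Counts were not scarce, since the 9 genes had 850 to 15987 counts in a library. The 95% interval of the fold change lay below 1.5-fold for all 9.

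**Figure D1:**
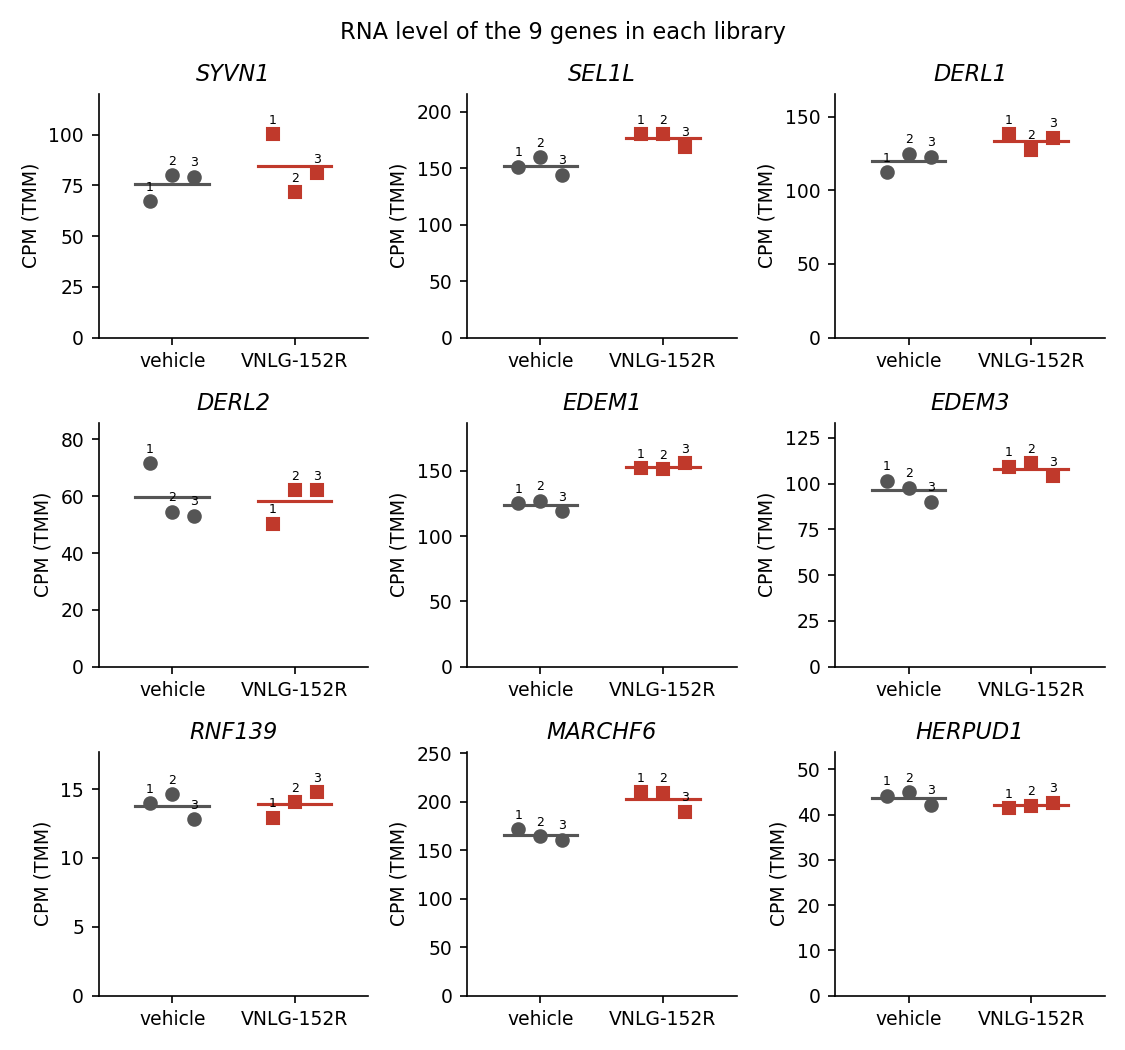
RNA level of the 9 genes in CPM after TMM normalization (vertical axes, each from 0), with vehicle controls as grey circles and VNLG-152R as red squares, numbered by replicate, and the group mean as a line. EDEM1 and MARCHF6 show all treated libraries above all controls, while the single high value of SYVN1 is VNLG-152R replicate 1 at 100.2 CPM.

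SYVN1 (ENSG00000162298) lies on chromosome 11 from 65121780 to 65134533, minus strand, in the GENCODE 29 annotation of GRCh38. FAU and MIR6751 share 8.39% of its exon bases, and MRPL49 overlaps 6.48% on the other strand. The strand setting of the counting is not given in the sources used here. The level of SYVN1 was 67.1, 79.9 and 79.3 CPM in vehicle control replicates 1 to 3. It was 100.2, 71.7 and 81.0 CPM in VNLG-152R replicates 1 to 3. A single treated library, replicate 1, stood well above the rest, treated replicate 2 was below 2 of the 3 controls, and the groups overlapped. The group means were 75.4 ± 7.22 and 84.3 ± 14.5 CPM (SD, n = 3 each). The log2 fold change of 0.16 had a standard error of 0.12 and a 95% interval from -0.10 to 0.42 (edgeR, adjusted p = 0.454), which is 1.12-fold with an interval from 0.934 to 1.34. Without VNLG-152R replicate 1 the log2 fold change was 0.02, and without VNLG-152R replicate 2 it was 0.27. Neither passed the test, nor did SYVN1 in any of the 16 alternative settings, where its adjusted p ranged from 0.215 to 0.924.

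SEL1L (ENSG00000071537), the adaptor that stabilizes SYVN1, lies on chromosome 14 from 81471549 to 81533861, minus strand. Its level was 151, 159 and 144 CPM in controls and 179.8, 179.9 and 169 CPM with VNLG-152R. Every treated library was above every control, and the libraries within a group lay close together. The log2 fold change of 0.22 (standard error 0.08, interval 0.04 to 0.39) did not pass over all tested genes (edgeR, adjusted p = 0.134). It was 0.13 after the exon length correction described below (adjusted p = 0.345). The log2 ratio of SYVN1 to SEL1L CPM within a library, a quantity free of library scaling, was -1.17, -0.997 and -0.860 in controls and -0.84, -1.33 and -1.06 with VNLG-152R. The treated range enclosed the control range. Such a ratio is not free of a library's lean with GC content, described below, because the 2 transcripts differ in it (56.3% and 39.4%). The part of that lean in the ratio was not tested. The mean ratio moved by -0.07, against an SD of 0.16 in controls and 0.24 with VNLG-152R (exact two-sided permutation test, p = 0.7, where 0.1 is the smallest p that 3 against 3 allows). SYVN1 against the other 7 genes gave ratio differences of -0.15 for EDEM1 to 0.21 for HERPUD1, described without a test.

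The Derlins are membrane proteins of the passage through which substrates leave the ER. DERL1 (ENSG00000136986, chromosome 8 from 123013164 to 123042423, minus strand) measured 112, 125 and 123 CPM in controls and 138, 128 and 136 CPM with VNLG-152R. The groups did not overlap, but the highest control and the lowest treated library were close. Its log2 fold change was 0.16 (standard error 0.08, edgeR, adjusted p = 0.276). DERL2 (ENSG00000072849, chromosome 17 from 5471251 to 5486811, minus strand) measured 71.6, 54.6 and 53.1 CPM in controls and 50.3, 62.2 and 62.2 CPM with VNLG-152R. Control replicate 1 was the highest library and treated replicate 1 the lowest, the mirror image of SYVN1. DERL2 had a log2 fold change of -0.04 with an interval from -0.31 to 0.23, and it turned positive, 0.11, without control replicate 1.

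HERPUD1 (ENSG00000051108, chromosome 16 from 56932048 to 56944863, plus strand) encodes a membrane protein that binds the SYVN1 complex and is a well-known target of the unfolded protein response. It measured 44.2, 45.0 and 42.2 CPM in controls and 41.4, 42.0 and 42.7 CPM with VNLG-152R. The 6 libraries were nearly level and the groups overlapped. Its log2 fold change of -0.06 had a 95% interval from -0.23 to 0.11 (edgeR, adjusted p = 0.697). HERPUD1 is the gene whose promoter window is shown above with a whole ER stress response element II.

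EDEM1 (ENSG00000134109) encodes a mannosidase-like protein that directs misfolded glycoproteins to disposal, and lies on chromosome 3 from 5187646 to 5219957, plus strand. Its level was 125.3, 127 and 119 CPM in controls and 152, 151 and 156 CPM with VNLG-152R. The lowest treated library stood well above the highest control, and EDEM1 varied less within groups than nearly all genes averaging 10 CPM or more. EDEM1 rose 1.24-fold (interval 1.10 to 1.39), a log2 fold change of 0.30 with a standard error of 0.08 (edgeR, adjusted p = 0.0405). The direction held in each of the 16 alternative settings (log2 fold change 0.28 to 0.32) and the call in 8. Omitting VNLG-152R replicate 1 kept the call (edgeR, adjusted p = 0.0439), and omitting any other single library lost it (0.2 at most). The call was also lost with no expression filter (adjusted p = 0.0501) and after a correction for exon length (0.0582). Antisense AC026202.3 overlaps 9.66% of the exon bases of EDEM1, and the strand setting of the counting is not given in the sources used here.

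EDEM3 (ENSG00000116406, chromosome 1 from 184690231 to 184754913, minus strand), a mannosidase of the same family, measured 102, 97.8 and 90.1 CPM in controls and 109, 111 and 104 CPM with VNLG-152R. The groups did not overlap, with control replicate 1 just below treated replicate 3. EDEM3 had a log2 fold change of 0.16 with an interval from -0.01 to 0.34 (edgeR, adjusted p = 0.257).

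MARCHF6 (ENSG00000145495) is the ligase known to degrade the sterol enzyme SQLE, and lies on chromosome 5 from 10353703 to 10440388, plus strand. It measured 171, 165 and 161 CPM in controls and 209.7, 209 and 189.7 CPM with VNLG-152R. All treated libraries were above all controls, and treated replicate 3 was the lowest of the 3. The log2 fold change of 0.29 was close to that of EDEM1, with a standard error of 0.08 (fold 1.23, interval 1.08 to 1.38), but it missed the threshold (edgeR, adjusted p = 0.0576). MARCHF6 passed when genes averaging under 1 CPM were dropped (adjusted p = 0.0424), in DESeq2 (0.0148) and after the GC correction described below (0.0403). After a correction for exon length its log2 fold change was 0.17 (adjusted p = 0.233). Its exons span 11336 bases, the most of the 9 genes, and across 16731 tested genes, which are not independent replicates, log2 fold changes rose with exon length (Spearman's rho 0.21). The part of exon length in the MARCHF6 value was not tested beyond that correction.

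RNF139 (ENSG00000170881), also called TRC8, is a sterol-responsive ligase on chromosome 8 from 124474738 to 124487914, plus strand. It measured 14.0, 14.6 and 12.8 CPM in controls and 12.9, 14.1 and 14.8 CPM with VNLG-152R. The ranges of the groups nearly coincided. RNF139 had a log2 fold change of 0.01 with an interval from -0.19 to 0.22 (edgeR, adjusted p = 0.949).

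Compared per length of exon, as RPKM, the control level was highest for EDEM1 at 18.3 ± 0.609, followed by DERL1 at 16.9 ± 0.962 and SEL1L at 15.8 ± 0.811 (SD, n = 3). MARCHF6 at 14.6 ± 0.480, SYVN1 at 13.7 ± 1.31 and EDEM3 at 12.4 ± 0.753 RPKM came next. The lowest were DERL2 at 9.36 ± 1.61, HERPUD1 at 8.49 ± 0.279 and RNF139 at 5.11 ± 0.335 RPKM. Control libraries of neighbours in this order overlapped, other than EDEM1 with DERL1, EDEM3 with DERL2 and HERPUD1 with RNF139. The means with VNLG-152R kept the order, from 22.7 for EDEM1 through 15.3 for SYVN1 to 5.16 RPKM for RNF139. By mean RPKM over the 6 libraries, SYVN1 ranked at the 80.0 percentile of tested genes and RNF139 at the 58.5 percentile.

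The libraries of SYVN1 differed more within a group than those of most genes. Its pooled SD within groups was 0.20 on the log2 scale, the 91.2 percentile of 9311 genes averaging 10 CPM or more, and that of DERL2 was 0.21, the 93.0 percentile. EDEM1 and HERPUD1, both at 0.04, were at the 2.16 and 2.06 percentile. The longest transcript of SYVN1 is rich in G and C (56.3%) and that of DERL2 is poor in them (39.4%). Those of SEL1L, EDEM3 and MARCHF6 are similarly poor in them (39.4%, 38.6% and 39.7%). Yet their pooled SDs were 0.06, 0.07 and 0.07, at the 14.2, 19.9 and 16.5 percentile. The libraries themselves differed in how counts leaned with GC content. Across 9307 genes, Spearman's rho of a library's deviation from its group mean with GC content was -0.49, 0.17 and 0.62 in controls 1 to 3. It was 0.75, -0.52 and -0.53 in VNLG-152R replicates 1 to 3. The highest library of SYVN1 and lowest of DERL2, VNLG-152R replicate 1, was the library that leaned most to GC-rich genes.

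**Figure D2:**
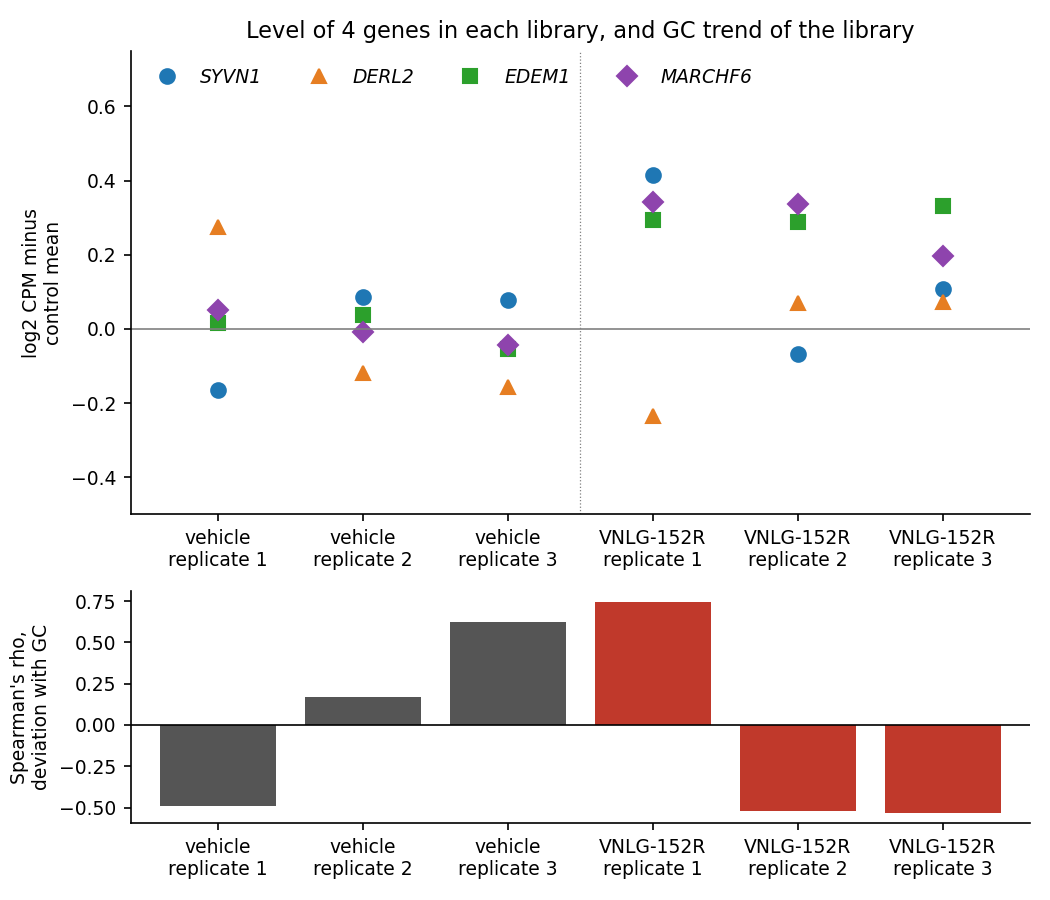
Top, log2 CPM of SYVN1, DERL2, EDEM1 and MARCHF6 in each library minus the mean of the 3 controls. Bottom, Spearman's rho of each library's deviation from its group mean with transcript GC content over 9307 genes (grey, vehicle; red, VNLG-152R). SYVN1 is highest and DERL2 lowest in VNLG-152R replicate 1, where rho is 0.75.

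Each library was then corrected for its trend with GC content, a step chosen after the data were seen. The trend was fitted to deviations from the mean of all 6 libraries, so a trend that differed between the groups was removed too. With this correction, the pooled SD of SYVN1 went from 0.20 to 0.13 and that of DERL2 from 0.21 to 0.14. Over the 9311 genes the median SD went from 0.11 to 0.088. The log2 fold change of SYVN1 stayed at 0.16, now with an interval from -0.03 to 0.35, and did not pass (edgeR, adjusted p = 0.249). EDEM1 (log2 fold change 0.31, adjusted p = 0.0104) and MARCHF6 (0.28, 0.0403) both passed. That is 2 of the 9 genes, in a fit that called 10.5% of all tested genes. The SD of SEL1L went up, from 0.06 to 0.11, and that of MARCHF6 from 0.07 to 0.11. That of DERL1 also went up (0.07 to 0.11), with EDEM3 (0.07 to 0.09) and HERPUD1 (0.037 to 0.040). RNF139 (0.096 to 0.076) and EDEM1 (0.038 to 0.036) went down. What gave the libraries their lean was not tested.

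**Figure D3:**
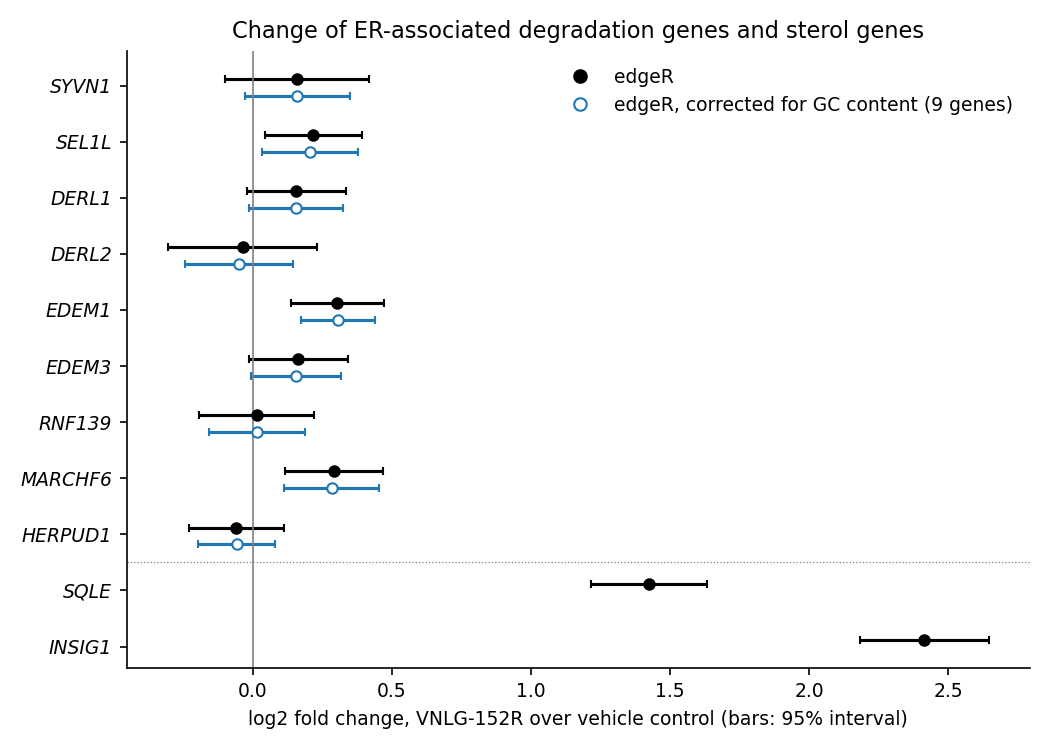
Log2 fold change of VNLG-152R over vehicle control with its 95% interval for the 9 genes and, under the dotted line, SQLE and INSIG1, from edgeR (black) and after the GC correction (blue, 9 genes). The 9 genes lie between -0.06 and 0.30, and SQLE and INSIG1 at 1.42 and 2.41.

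The genes whose level followed that of SYVN1 most closely over the 6 libraries were PINK1, PLD3, ADGRG1, PLEKHA6 and RUSF1, by Pearson's r of log2 CPM among 9276 genes. Their r was 0.996, 0.993, 0.993, 0.992 and 0.991. Transcripts of these genes had a GC content of 52.5% to 63.4%, and none passed the test (edgeR, adjusted p 0.421 to 0.696). Of the 8 partners, DERL1 had the highest r with SYVN1, 0.80, and SEL1L, EDEM1 and MARCHF6 had 0.42, 0.39 and 0.36. DERL2 had -0.83, and HERPUD1 and RNF139 were also negative at -0.51 and -0.42. These are descriptions over 6 libraries that share the GC lean above.

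Around SYVN1, 87 further genes were taken from 7 lists, and 83 of them were tested. Changed genes numbered 4, all higher with VNLG-152R, against 3.76% higher among all tested genes, and the median log2 fold change of the 83 was 0.04. None of the 17 tested partners of SYVN1 and dislocation factors changed (median 0.01). FAM8A1, a subunit that assists the complex, went from 17.0 ± 1.29 to 20.2 ± 0.868 CPM, with groups apart (log2 fold change 0.25, edgeR, adjusted p = 0.135). SVIP, a small inhibitor of this route, went from 40.5 ± 4.55 to 34.9 ± 4.69 CPM with overlap (log2 fold change -0.22, adjusted p = 0.284, and 0.0465 after the GC correction). DERL3, the remaining Derlin, had no count in any library, where 3 counts would be 0.0365 to 0.0499 CPM. With the counting rules unknown, this does not show that it was unexpressed, and 77% of its exon bases lie under SMARCB1 on the other strand.

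None of the 9 glycan trimming genes and chaperones changed (median log2 fold change 0.02). UGGT1, which returns unfolded glycoproteins to the folding cycle, was nearest, from 223 ± 12.7 to 268 ± 15.7 CPM (log2 fold change 0.26, edgeR, adjusted p = 0.0918). UGGT1 passed in DESeq2 and after the GC correction. Of 14 tested other membrane ligases none changed (median 0.06). RNF145, a sterol-responsive ligase, had a log2 fold change of -0.08 (edgeR, adjusted p = 0.572). RNF5 had no count in any library, which with the counting rules unknown does not show that it was unexpressed. Of 10 cytosolic factors none changed (median 0.08). BAG6 among them had 28 to 43 counts in a library, which with the counting rules unknown does not show low expression. GET4, a part of the complex that guards exposed membrane segments, was the most distant at a log2 fold change of 0.66 (edgeR, adjusted p = 0.0625). Its raw counts were 123, 96 and 145 in the control libraries. They were 181, 292 and 216 in the treated libraries, above every control. SUN1 shares 34.2% of the exon bases of GET4, and 48.1% lie under AC073957.3 on the other strand. GET4 passed with no expression filter (adjusted p = 0.0064), in DESeq2 (0.0245) and without VNLG-152R replicate 1 (0.0487).

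Of 8 genes of sterol-regulated degradation, 3 rose with VNLG-152R and none fell (median log2 fold change 0.12). Among them, INSIG1 rose from 12.6 ± 1.33 to 67.3 ± 6.38 CPM and SQLE from 14.9 ± 1.73 to 40.0 ± 0.940 CPM (SD, n = 3 each, edgeR, adjusted p = 1.51e-07 and 4.27e-06). INSIG1 is a sterol-sensing adaptor of the ER membrane, and SQLE makes squalene epoxide. ERLIN2, a membrane scaffold of the route, had a log2 fold change of 0.18 with groups apart (edgeR, adjusted p = 0.265).

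SQLE was set against MARCHF6, its ligase, a pair chosen after the data were seen. Within a library, the log2 ratio of SQLE to MARCHF6 CPM was -3.36, -3.46 and -3.60 in controls and -2.43, -2.37 and -2.22 with VNLG-152R. Every treated library was above every control, and the mean was higher by 1.13. The exact two-sided permutation p was 0.1, the smallest that 3 against 3 allows, so it could not pass 0.05. The ratio restates the log2 fold changes of SQLE (1.42) and MARCHF6 (0.29) given above, and adds no separate evidence on the pair.

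**Figure D4:**
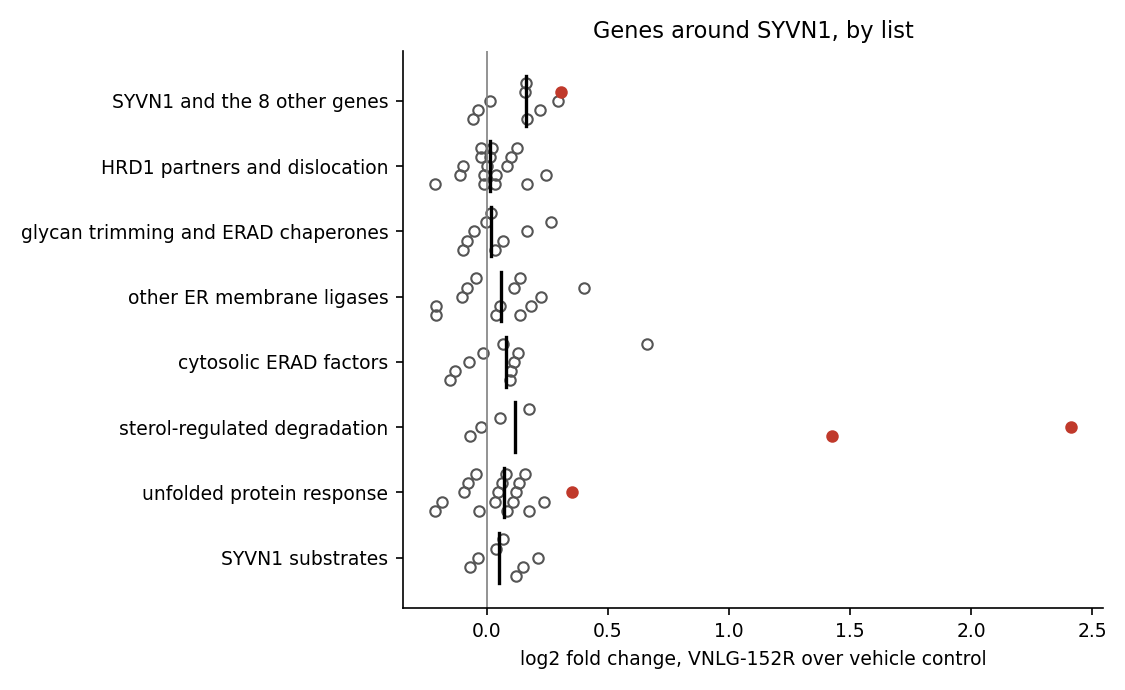
Log2 fold change of each tested gene by list, filled red where the edgeR adjusted p was under 0.05 and open otherwise, with the list's median as a black bar. The 9 genes have a median of 0.16, and the filled points at 1.42 and 2.41 are SQLE and INSIG1. Points of 4 genes that are not reported here are left out, while the medians cover all tested genes of each list.

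Of 18 tested genes of the unfolded protein response, only PPP1R15A changed, and the median log2 fold change was 0.07. PPP1R15A, the phosphatase subunit that restores translation after stress, rose from 173 ± 10.3 to 220.5 ± 19.7 CPM (log2 fold change 0.35, edgeR, adjusted p = 0.0445). Omitting VNLG-152R replicate 2 kept that call (adjusted p = 0.037), and omitting any other single library lost it (0.192 at most). HSPA5, the main ER chaperone, went from 1341 ± 72.9 to 1299 ± 134 CPM (log2 fold change -0.05, interval -0.26 to 0.17). XBP1 and ATF4, transcription factors of the response, stood at -0.19 and -0.21 on the same scale with groups apart (edgeR, adjusted p = 0.232 and 0.136). DDIT3, a factor of prolonged stress, was at 0.17 (adjusted p = 0.398) and EIF2AK3, the sensor PERK, at 0.24 (0.134). The ER stress response element that the 6 windows lacked was found in 5 of 18 windows of this list, namely those of HSPA5, HSP90B1, XBP1, CRELD2 and CALR. None of these 5 changed, with log2 fold changes from -0.19 for XBP1 to 0.06 for CALR. The 18 windows are not those of the 18 tested genes, since SEC24D had no window and HYOU1 had a window but was not tested. The HYOU1 window held ATTGGNCCACG and TGACGTGG, but the gene had at most 1 count in a library. With the counting rules unknown, this does not show that HYOU1 was unexpressed.

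None of 8 reported substrates of SYVN1 changed at the RNA level (median log2 fold change 0.05). MKNK1, which encodes the kinase MNK1, went from 46.1 ± 1.40 to 47.3 ± 1.5 CPM (log2 fold change 0.04, interval -0.14 to 0.21). MKNK2, which encodes MNK2, went from 123 ± 6.21 to 120.0 ± 11.3 CPM (log2 fold change -0.04, interval -0.23 to 0.16). The groups overlapped for both kinases.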

How the data were processed

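Polyadenylated RNA of 6 MDA-MB-231 samples, 3 per group by their treatment labels, was sequenced in paired-end mode by the authors, with strand-specific libraries. The deposited files hold raw read counts per Ensembl gene. The submitters' processing notes name HISAT, HTSeq, DESeq and GRCh38, without versions. Neither the annotation release nor the strand setting is given in the sources used here. Per library, pairs in no gene (2.63% to 5.05%), ambiguous pairs (4.81% to 5.16%) and pairs without a unique alignment (7.81% to 8.12%) were left out. Of 61552 identifiers, 42047 have a symbol. Gene positions, exon lengths and overlaps came from GENCODE 29, which may not be the release the authors counted with, and promoter windows from RefSeq (GRCh38.p14).

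Counts were fitted over all genes in R 4.3.3 with edgeR 4.0.16 (TMM, filterByExpr, quasi-likelihood test, 17084 genes tested, residual degrees of freedom 4, biological coefficient of variation 0.105). Benjamini-Hochberg adjustment ran over every tested gene (threshold 0.05). The fit was tested on simulated data. Ratios of log2 CPM (prior count 2) were compared by exact permutation tests. Corrections for exon length and GC content fitted a lowess curve (span 0.3) to each library's deviation from the mean of all 6 libraries. Alternatives were RLE factors, library size alone, other filters, DESeq2 1.42.0, limma-voom (limma 3.58.1), replicate number as a block, exon length, and leaving out each library. GC content, thinning to the shallowest library and unadjusted p-values were added after the data were seen.

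The 9 genes and all lists were chosen with earlier results of these data known. Named genes were the 9, up to 4 genes per list and direction with the smallest p, SQLE, INSIG1, HSPA5, DDIT3, XBP1, MKNK1 and MKNK2, and the 5 genes most correlated with SYVN1 over the 6 libraries. Not all of these are printed, and some genes of the rule are not reported here. DERL3, RNF5, HYOU1, HSP90B1, CALR, PGR, ERBB2, VIM, CAV1 and EGFR fall outside this rule and were named for their counts, promoter match or marker role after their values were seen.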

Additional observations from a re-analysis of the deposited data

Results flagged for a closer look

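The share of read pairs that fell in no annotated gene lies outside the gene counts, and it differed between the groups. It averaged 3.97% with VNLG-152R (SD 0.935, range 3.36% to 5.05%, n = 3) and 2.95% in vehicle controls (SD 0.286, range 2.63% to 3.17%, n = 3). The difference was 1.03 percentage points, and 0.487 without VNLG-152R replicate 2, where the treated mean was 3.44%. Every treated library was above every control (exact two-sided permutation test, p = 0.1, the smallest that 3 against 3 allows). Its part in the values of the 9 genes was not tested.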

How the results depend on the processing

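Of the 9 genes, 1 changed in the reported fit. The count was 2 with genes averaging under 1 CPM dropped (6.97% of all tested genes called), 2 in DESeq2 (10.1%), 0 with no expression filter (4.77%) and 0 after the exon length correction (3.61%). It was 2 after the GC correction (10.5%) and 3 at an unadjusted p under 0.05 (22.6%), both settings chosen after the data were seen. It ranged from 0 to 1 when single libraries were left out (1.51% to 5.42%), and was 1 only without VNLG-152R replicate 1 (5.42%). Fewer samples enter the fits with a library left out, and more genes are tested with no filter. The cause of any of these shifts was not tested. No value of the 144 for the 9 genes over 16 settings reversed a call: 133 kept their side of the threshold, 8 lost it, all for EDEM1, and 3 gained it, all for MARCHF6. Of the 83 tested genes of the wider lists, 4 changed, 6 did in DESeq2 and 7 after the GC correction, and 3 with the replicate block. With the replicate block, 0 of the 9 genes changed (EDEM1, adjusted p = 0.185) and 397 of all genes did, against 887 without it. Same-numbered libraries did not deviate together (correlation of deviations -0.19, -0.17 and -0.11). These deviations carry the GC lean above, so they cannot settle whether the samples were paired. The reported fit left the replicate numbers out. Depth of 850 counts or more per library for each of the 9 genes keeps counting error low.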
